A study of Saccharomyces cerevisiae with 6 samples.

Results

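The genes for the proteins of the mitochondrial ribosome were followed in Saccharomyces cerevisiae cells that overexpressed Med3-GST, a fusion of a Mediator subunit, or GST alone. A gene was taken in when its symbol was MRPL, MRPS, MRP or RSM followed by a number, or IMG1 or IMG2. MRP8 shares the name pattern and was left out. This gave 67 genes of the 5449 S. cerevisiae genes with a probe set, 39 for the large subunit and 28 for the small subunit, and each of the 67 had 1 probe set. The rule used names only and no measured value, though it was set with earlier results of these data known.

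Cells of both groups grew in synthetic medium without uracil, with galactose as the sugar, and expressed their protein for 48 h from a galactose-inducible promoter. The 3 biological replicates of a group bear the letters A, B and C, and each was read on 1 Affymetrix Yeast Genome 2.0 Array. The strains listed in the study derive from BY4741 (MATa his3Δ1 leu2Δ0 met15Δ0 ura3Δ0). Those listed with the GST or Med3-GST plasmid also carry a tagged Mediator subunit, either Med18 with FLAG or Med3 with GFP. The sample titles carry 025C for the Med3-GST arrays and 4741 for the GST arrays, with no other statement of the strain arrayed. Galactose was common to both groups. GST was expressed alone in the control cells and as part of the fusion in Med3-GST cells. By qPCR, the study found a lower steady level of the Med3-GST transcript than of the GST transcript. All values below are log2 signals of 1 array or differences between mean log2 signals, Med3-GST minus GST, so that a difference of 1 is a doubling. PGD1, the gene of Med3, had a log2 signal of 11.85, 11.73 and 11.84 in Med3-GST cells, against 8.24, 8.01 and 8.07 in GST cells, which is 13-fold higher. A probe set on this gene does not tell the plasmid copy from the chromosomal copy.

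The mitochondrial ribosome translates the few proteins that the mitochondrial genome encodes, most of them core subunits of the respiratory chain and the ATP synthase. Its RNAs come from mitochondrial DNA, while all but 1 of its proteins in yeast are encoded in the nucleus, made in the cytosol and imported. Many of these proteins have a counterpart in the bacterial ribosome, and others are found only in mitochondria. In yeast the genes are best known for a joint rise during growth on non-fermentable carbon and for the binding of their mRNAs by Puf3. On galactose, S. cerevisiae ferments and respires at the same time.

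Most mitochondrial ribosomal protein genes had slightly less signal in Med3-GST cells than in GST cells, and a few had clearly more. Of the 67 genes, 40 (59.7%) fell, against 47.8% of all probe sets called lower, and 13 (19.4%) rose, against 27.1% of all probe sets called higher. The other 14 did not pass the test. The median difference of the 67 genes was -0.19, beside -0.08 for all 5498 probe sets tested, and the middle 50% of the genes lay between -0.30 and -0.01, against -0.30 and 0.13 for all probe sets. The changes were small. None of the 67 genes reached a 2-fold difference as deposited, which 0.637% of all probe sets did upward and 1.2% downward, while with the median of each array subtracted IMG1 alone did, at 1.03, beside 1.09% of all probe sets upward and 0.891% downward. Only 4 genes moved by 0.5 or more in size, which 15.5% of all probe sets did. The test was limma's moderated test with Benjamini-Hochberg adjustment over all 5498 probe sets. Because 74.9% of all probe sets passed it, a call by itself sets no gene apart. A change in all cells and a larger change in a part of the cells cannot be told apart in these bulk samples.

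The arrays themselves differed by small offsets, and these touch the count of rising genes. The median signal of all probe sets was 9.96, 9.87 and 9.99 on the Med3-GST arrays and 10.08, 9.99 and 10.04 on the GST arrays. The median signal of the 67 genes was 10.27, 10.19 and 10.29 on the Med3-GST arrays and 10.44, 10.35 and 10.39 on the GST arrays, without overlap between the groups. The medians of all probe sets did not overlap either, though narrowly, with 9.9874 on Med3-GST array C and 9.9881 on GST array B. Array B was the lowest of its group for 65 of the 67 genes in Med3-GST cells and for 56 in GST cells. When the median of all probe sets was subtracted from each array (centring), 20 genes (29.9%) rose and 38 (56.7%) fell, beside 43.6% and 41.7% of all probe sets. The centred median difference was -0.09, beside 0.01 for all probe sets. No gene was called in opposite directions by the values as deposited and the centred values, and 51 were called in the same direction by both. With centring, 7 genes that had not passed rose and 2 that had fallen no longer passed. The arrays of a group were otherwise very alike, with correlations across probe sets of 0.999 or more within a group and of 0.973 or less between groups, and all 67 genes lay on every array above 7.49, the level below which 95% of the array's S. pombe probe sets fell.

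**Figure D1:**
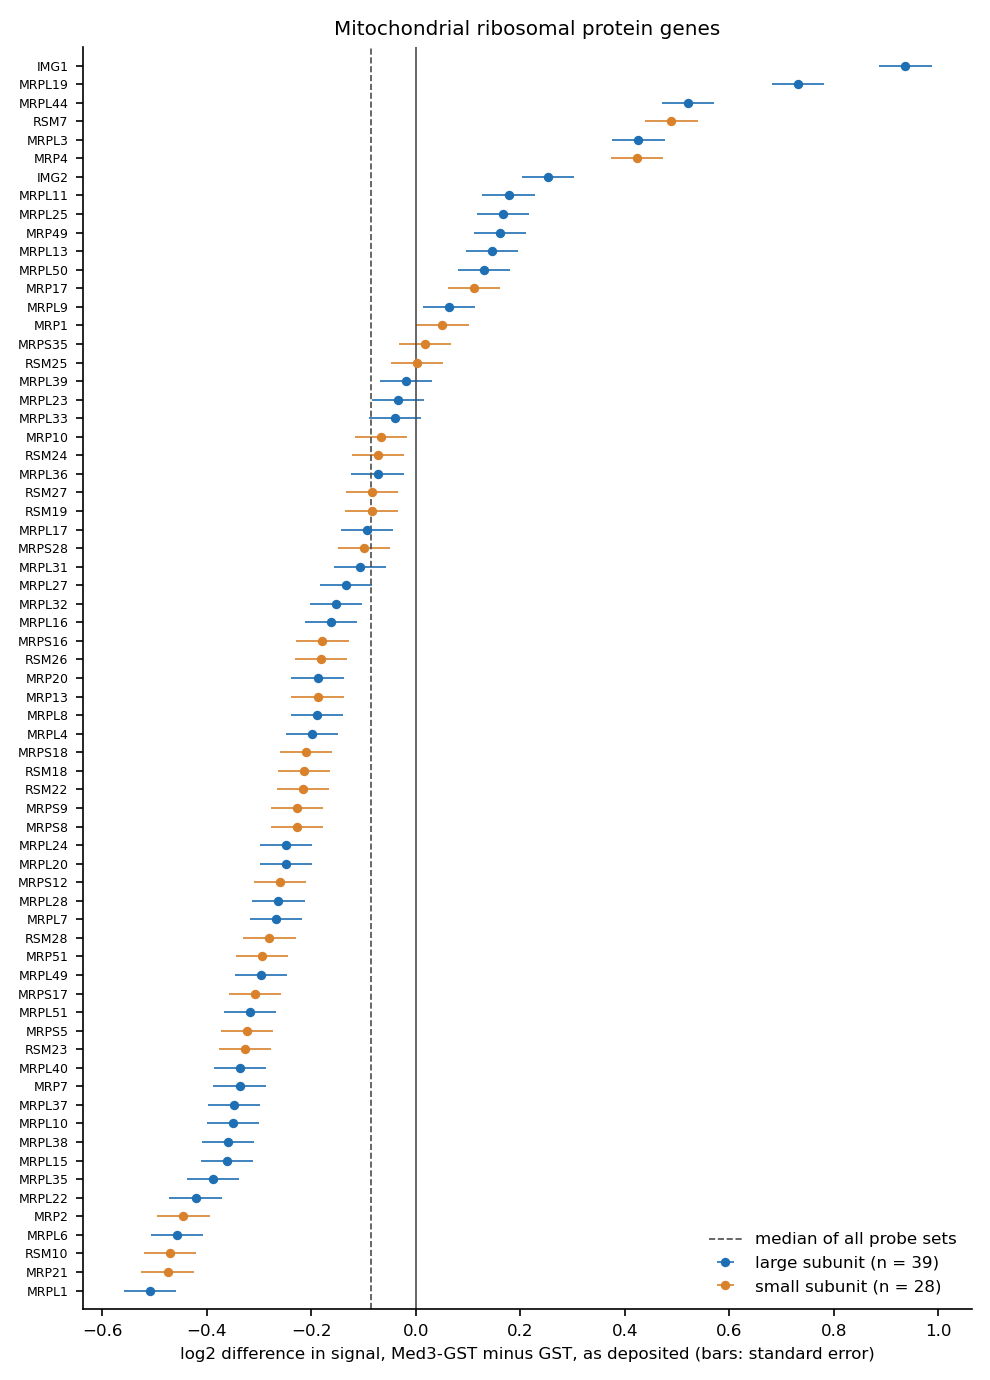
Log2 difference in signal between Med3-GST and GST cells, as deposited, for each of the 67 genes, ordered by size, with standard errors as bars and colours for the large and the small subunit. The genes run from IMG1 at 0.94 to MRPL1 at -0.51, and 50 of them lie below 0.

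IMG1 (YCR046C) rose most. It encodes the mitochondrial counterpart of bacterial ribosomal protein L19, and yeast without it loses intact mitochondrial DNA. Its log2 signal was 11.28, 11.25 and 11.34 in Med3-GST cells, against 10.44, 10.26 and 10.36 in GST cells. The groups lay far apart, with means of 11.29 ± 0.04 in Med3-GST cells and 10.35 ± 0.09 in GST cells (SD, n = 3 each), and the difference of 0.94 was 1.91-fold. After centring it was 1.03, just past 2-fold. IMG1 also stands among the genes the study itself picked from these arrays, where it is listed at just over 2-fold. Its rise here is therefore not independent evidence. IMG2, which codes for a mitochondria-specific protein of the large subunit, had 10.29, 10.19 and 10.29 in Med3-GST cells and 10.07, 9.93 and 10.01 in GST cells. It rose by 0.25, also without overlap.

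Both genes for the base of the stalk, the arm of the large subunit that receives translation factors, also rose, beside 27.1% of all probe sets. MRPL19 (YNL185C), the counterpart of bacterial L11, had 9.76, 9.65 and 9.80 in Med3-GST cells and 9.02, 8.96 and 9.03 in GST cells, a difference of 0.73 or 1.66-fold. MRPL11, the counterpart of L10, had 9.76, 9.69 and 9.79 in Med3-GST cells and 9.58, 9.54 and 9.59 in GST cells, a difference of 0.18. In both genes every Med3-GST array was above every GST array, as in 26.6% of all probe sets. For MRPL19 the gap was much wider than the spread of either group. MNP1, which codes for the counterpart of L12 that sits on this base and has no name of the MRP type, went the other way. Its signal was 10.90, 10.79 and 10.93 in Med3-GST cells and 11.41, 11.27 and 11.37 in GST cells, and it fell by 0.47. The stalk genes thus moved in both directions.

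Among the other rising genes, MRPL44 and MRPL3 encode mitochondria-specific proteins of the large subunit, and RSM7 and MRP4 encode the counterparts of bacterial S7 and S2 in the small subunit. MRPL44 had 10.51, 10.33 and 10.50 in Med3-GST cells and 9.96, 9.91 and 9.90 in GST cells, a difference of 0.52. RSM7 had 10.40, 10.40 and 10.45 in Med3-GST cells and 9.9997, 9.88 and 9.90 in GST cells, a difference of 0.49. RSM7 and MRP4 were, with MRP17, the only genes of the small subunit that rose as deposited. MRP4 had 9.88, 9.88 and 9.98 in Med3-GST cells and 9.56, 9.38 and 9.53 in GST cells, a difference of 0.42. In assembly R64, MRP4 overlaps YHL005C on the opposite strand and MRPL19 overlaps YNL184C on its own strand, and neither open reading frame was measured by itself. MRPL25 and MRP49, which encode further mitochondria-specific proteins of the large subunit, were higher by 0.17 and 0.16, again with every Med3-GST array above every GST array.

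The remaining 3 calls upward were weak. MRPL13, MRPL50 and MRP17 encode a mitochondria-specific protein and the counterparts of bacterial L9 and S6. Their differences of 0.15, 0.13 and 0.11 passed the test, but their groups overlapped. MRPL13 was at 0.12 without Med3-GST replicate C and at 0.11 without GST replicate B, and passed in neither case. MRPL50 and MRP17 failed without any one of Med3-GST replicates A and C and GST replicates B and C, with differences between 0.09 and 0.13 for MRPL50 and between 0.08 and 0.11 for MRP17. After centring, all 3 genes rose without overlap between the groups, by 0.24, 0.23 and 0.21.

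MRPL1 (YDR116C), the counterpart of bacterial L1, fell most. It had 10.07, 9.98 and 10.07 in Med3-GST cells, against 10.60, 10.46 and 10.58 in GST cells, a difference of -0.51 or 1.42-fold lower. Next came 2 genes of the small subunit. MRP21, the counterpart of S21, had 9.59, 9.50 and 9.64 in Med3-GST cells and 10.10, 10.03 and 10.03 in GST cells, a difference of -0.47. RSM10, the counterpart of S10, had 10.91, 10.85 and 10.91 in Med3-GST cells and 11.44, 11.32 and 11.33 in GST cells, also a difference of -0.47. In all 3 genes the highest Med3-GST array lay well below the lowest GST array.

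MRPL6, MRP2 and MRPL22, the counterparts of L6, S14 and L22, fell by 0.46, 0.44 and 0.42. MRPL6 had 10.17, 10.10 and 10.14 in Med3-GST cells and 10.66, 10.55 and 10.58 in GST cells. MRP2 had 10.96, 10.77 and 10.96 in Med3-GST cells and 11.36, 11.35 and 11.32 in GST cells. The replicates of both genes kept apart by group. MRPL35 and MRPL15, both for mitochondria-specific proteins of the large subunit, were lower by 0.39 and 0.36, and MRPL38 and MRPL10, the counterparts of L14 and L15, by 0.36 and 0.35. MRPL15 had 10.13, 10.02 and 10.14 in Med3-GST cells and 10.48, 10.43 and 10.47 in GST cells. None of these 10 lowest genes had overlapping groups, while 48.4% of all probe sets had all Med3-GST arrays below all GST arrays. All 10 were also called lower after centring, by 0.25 to 0.41. Because the 10 were picked by these same differences, neither result is separate support.

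**Figure D2:**
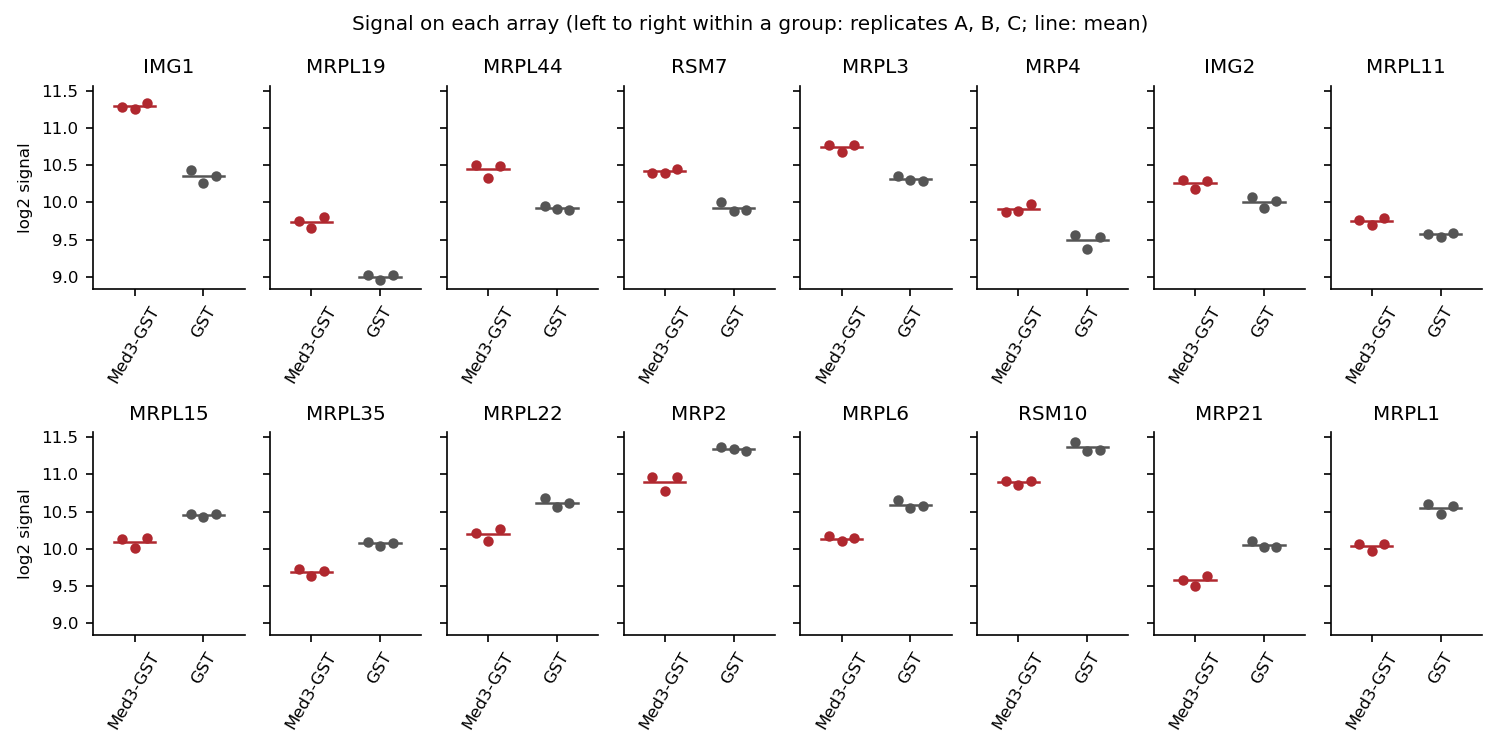
Log2 signal on each of the 6 arrays for the 8 genes with the highest difference (upper row, IMG1 to MRPL11) and the 8 with the lowest (lower row, MRPL15 to MRPL1, left to right in order of difference), with a line at each group mean. In each of these 16 genes the Med3-GST and GST points do not overlap, and replicate B is often the lowest of its group. The genes were picked by their difference, so the lack of overlap is no separate support.

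Over the 67 genes, all Med3-GST arrays lay above all GST arrays in 10 (26.6% of all probe sets did so) and below them in 41 (48.4% of all probe sets), and the groups overlapped in 16. The SD between replicates was 0.06 at the median in both groups. When each probe set was tested with its own variance alone, 10 genes rose and 34 fell, beside 22.8% and 41.4% of all probe sets. After centring, the Med3-GST arrays lay above in 20 genes and below in 39, beside 43.2% and 42.2% of all probe sets.

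In both subunits more genes fell than rose, as did all probe sets as deposited, of which 47.8% fell and 27.1% rose. After centring, 41.7% of all probe sets fell and 43.6% rose. In the large subunit 10 of 39 genes (25.6%) rose and 23 (59.0%) fell, with a median of -0.16, and after centring 14 rose and 21 fell. In the small subunit 3 of 28 (10.7%) rose and 17 (60.7%) fell, with a median of -0.20, and after centring 6 rose and 17 fell. Split by origin, the 41 genes with a bacterial counterpart had a median of -0.21, with 7 (17.1%) higher and 27 (65.9%) lower. After centring 11 of them rose and 27 fell. The 25 mitochondria-specific genes had a median of -0.09, with 6 (24%) higher and 12 (48%) lower, shares near those of all probe sets. After centring their median was 0.00, with 9 higher and 10 lower. Among the 10 mitochondria-specific genes of the small subunit 4 fell, none rose and 6 did not pass, with a median of -0.08. That median turned to 0.02 after centring, when 3 of these genes, MRP1, MRPS35 and RSM25, rose by 0.15, 0.11 and 0.10. MRP1 alone was also called higher, by 0.10, without Med3-GST replicate B. RSM22, which encodes a methyltransferase-like protein that is not a stable part of the subunit, had 8.91, 8.82 and 8.88 in Med3-GST cells and 9.12, 9.12 and 9.04 in GST cells and fell by 0.22. No difference between these groups of genes was tested.

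Genes for the exit of the peptide tunnel, where nascent chains leave the ribosome beside the inner membrane, were split. Of 7 such genes, MRPL3 and MRPL13 rose, as given above, and 5 fell, beside 27.1% and 47.8% of all probe sets. MRPL3 had 10.77, 10.68 and 10.77 in Med3-GST cells and 10.35, 10.30 and 10.29 in GST cells, a difference of 0.43. MRPL22 went the other way, with 10.22, 10.11 and 10.27 in Med3-GST cells and 10.68, 10.57 and 10.62 in GST cells. MRPL40, the counterpart of L24, had 9.70, 9.65 and 9.70 in Med3-GST cells and 10.12, 9.98 and 9.95 in GST cells and fell by 0.34. MRPL4 and MRP20, the counterparts of L29 and L23, fell by 0.20 and 0.19, neither with overlap between the groups. MRPL27, a mitochondria-specific protein gene, was lower by 0.13 and did not pass without GST replicate A (-0.10) or after centring (-0.04). MRPL13 lost its call upward without Med3-GST replicate C (0.12) or GST replicate B (0.11).

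In the central protuberance, the crown of the large subunit, no gene rose, beside 27.1% of all probe sets. MRPL35 had 9.72, 9.64 and 9.70 in Med3-GST cells and 10.10, 10.04 and 10.08 in GST cells. MRP7, the counterpart of L27, had 10.22, 10.12 and 10.24 in Med3-GST cells and 10.57, 10.52 and 10.51 in GST cells, a difference of -0.34. These 2 genes, with MRPL7 (the counterpart of L5) at -0.27 and the mitochondria-specific MRPL28 at -0.26, were the 4 of 6 that fell. None of the 4 overlapped between groups. Of all probe sets 47.8% fell, and 48.4% had all Med3-GST arrays below all GST arrays. Counts over so few genes do not set the region apart. MRPL17 and MRPL36, for a mitochondria-specific protein and the counterpart of L31, were at -0.09 and -0.07 and did not pass, and both differences were just above 0 after centring. MRPL17 was called lower, at -0.11, without GST replicate B.

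Near the peptidyl transferase centre, where peptide bonds form, MRPL16 and MRPL9 were measured, the counterparts of L16 and L3. MRPL16 had 10.18, 9.99 and 10.21 in Med3-GST cells and 10.34, 10.24 and 10.29 in GST cells and fell by 0.16. It did not pass, at -0.10, without Med3-GST replicate B, the lowest of its arrays. MRPL9 had 10.997, 10.924 and 11.048 in Med3-GST cells and 10.976, 10.881 and 10.921 in GST cells, which overlapped. Its difference of 0.06 did not pass, while it was called higher without Med3-GST replicate B (0.10) and after centring (0.16). At the decoding site of the small subunit, where codon and anticodon are matched, both genes fell, as did 47.8% of all probe sets. MRPS12, the counterpart of S12, had 11.62, 11.53 and 11.65 in Med3-GST cells and 11.94, 11.75 and 11.89 in GST cells, a difference of -0.26. MRPS5, the counterpart of S5, had 9.64, 9.57 and 9.71 in Med3-GST cells and 9.99, 9.88 and 10.01 in GST cells, a difference of -0.32.

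**Figure D3:**
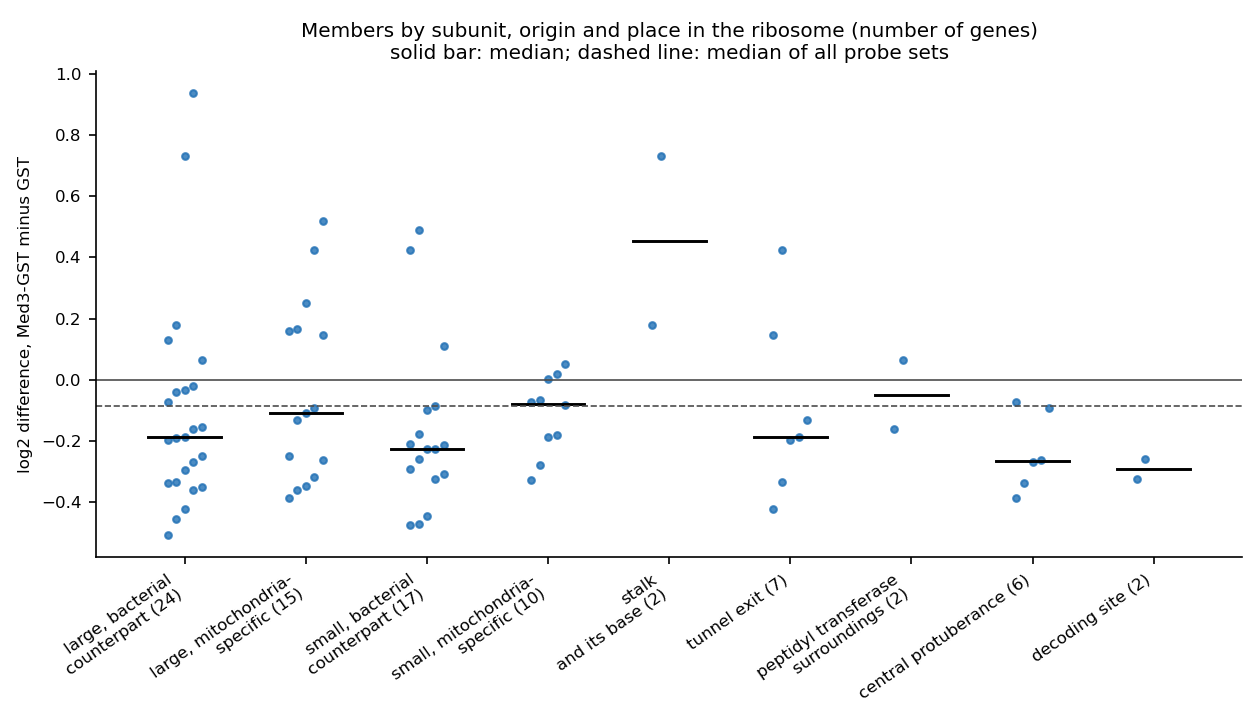
Log2 difference in signal, Med3-GST minus GST, of the genes by subunit and origin and by place in the ribosome, 1 point per gene, with the median of each group as a bar and that of all probe sets as a dashed line. Both genes of the stalk base lie above 0, the 7 of the tunnel exit on both sides, and all 6 of the central protuberance below 0, of which MRPL17 and MRPL36 turn positive with centring.

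Other genes of mitochondrial gene expression are given by the same counts, to be read against the 27.1% of all probe sets that rose and the 47.8% that fell. Of 12 measured genes for mitoribosomal proteins with other names, 3 (25.0%) rose (EHD3 by 0.36, FYV4 by 0.23 and YML6 by 0.19) and 6 (50%) fell, with a median of -0.12. These shares were near those of all probe sets. EHD3, whose product is also known as a hydroxyisobutyryl-CoA hydrolase, had 10.06, 9.95 and 10.09 in Med3-GST cells and 9.73, 9.60 and 9.67 in GST cells, without overlap. MNP1 and MHR1 fell most, by 0.47 and 0.38, and Mhr1 is also known for recombination of mitochondrial DNA. VAR1, the ribosomal protein gene that lies on mitochondrial DNA, was not analysed here.

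Of 13 mitochondrial translation factor genes 10 (76.9%) fell and 1 (7.69%) rose, with a median of -0.33, beside 47.8% and 27.1% of all probe sets. AIM23, the mitochondrial initiation factor 3, had 9.24, 9.17 and 9.22 in Med3-GST cells and 9.79, 9.81 and 9.82 in GST cells and fell by 0.60. PET112, a subunit of the enzyme that makes glutaminyl-tRNA in mitochondria, and RRF1, the ribosome recycling factor, fell by 0.57 and 0.47. The 1 gene that rose was MTQ1, a methyltransferase of the release factor, at 0.12 with overlap between the groups. Of 16 genes for translational activators, which recruit single mitochondrial mRNAs, 13 (81.2%) fell and 2 (12.5%) rose (CBP3 by 0.22 and MSS51 by 0.16), with a median of -0.30. PET494 and CBS2, activators of COX3 and COB mRNA, fell by 0.68 and 0.38, and AEP1, needed for ATP9 mRNA, fell by 0.49.

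Genes for mitochondrial tRNA synthetases gave 8 lower (61.5%) and 2 higher (15.4%) of 13, with a median of -0.18, beside 47.8% and 27.1% of all probe sets. MSE1, the glutamyl-tRNA synthetase gene, was lower by 0.48 and MST1, that for threonine, by 0.33, while MSR1 for arginine and MSD1 for aspartate were higher by 0.46 and 0.30. Of 13 genes for assembly of this ribosome and insertion of its products into the inner membrane, 5 (38.5%) fell, a smaller share than over all probe sets, and 1 (7.69%) rose, with a median of -0.06. After centring the median was 0.04, and 4 were lower and 5 higher, beside 41.7% and 43.6% of all probe sets. MTG1, a GTPase, and MRM2, an rRNA methyltransferase, both of large subunit assembly, fell by 0.33 and 0.26, and the helicase gene MSS116 by 0.16. The insertase gene OXA1 was the 1 that rose, by 0.14.

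Of 7 genes for mitochondrial DNA expression and PUF3, 6 (85.7%) fell and 1 (14.3%) rose, with a median of -0.20, beside 47.8% and 27.1% of all probe sets. After centring 4 fell and 1 rose, beside 41.7% and 43.6% of all probe sets. DSS1 and SUV3, the exonuclease and the helicase of the mitochondrial RNA degradosome, moved apart, at -0.51 and 0.17. PUF3, the RNA-binding protein gene named above, fell by 0.27, and MIP1, the mitochondrial DNA polymerase gene, by 0.23.

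Most genes listed for nuclear-encoded proteins of the respiratory chain and the ATP synthase fell. Of 38 genes, 25 (65.8%) were lower and 4 (10.5%) higher (QCR2, ATP1, ATP2 and CYT1), with a median of -0.28, beside 47.8% and 27.1% of all probe sets. After centring, 23 (60.5%) fell and 13 (34.2%) rose, beside 41.7% and 43.6%. COX5B, the hypoxic form of a cytochrome oxidase subunit, was far below the others, with 10.32, 10.13 and 10.32 in Med3-GST cells and 11.70, 11.57 and 11.61 in GST cells, a difference of -1.37. ATP17 and ATP3 of the ATP synthase fell by 0.52 and 0.47.

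In the ribosome of the cytosol more genes rose than fell. Of 128 genes with names of the RPL, RPS or RPP type, 55 (43.0%) rose and 10 (7.81%) fell, with a median of 0.07. Of all probe sets 27.1% rose and 47.8% fell, and of the 67 mitochondrial genes 13 (19.4%) and 40 (59.7%). The pattern also takes in RPP1, which encodes a subunit of RNase P, and without it 54 of 127 rose and 10 fell. After centring, 103 of the 128 rose and 5 fell, beside 43.6% and 41.7% of all probe sets. RPS14B, RPS11A and RPS28B rose by 0.78, 0.69 and 0.53, although many of these genes come in nearly identical pairs that a probe set may not tell apart. Among 38 UTP, NOP and NOC genes, whose products assemble the cytosolic ribosome in the nucleolus, 28 (73.7%) rose and none fell, with a median of 0.32, beside 27.1% and 47.8% of all probe sets. NOC4, UTP15 and UTP6 rose by 1.26, 1.09 and 0.96. These lists are set beside the mitochondrial genes by their counts and medians, and no test of the difference between lists was made.

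**Figure D4:**
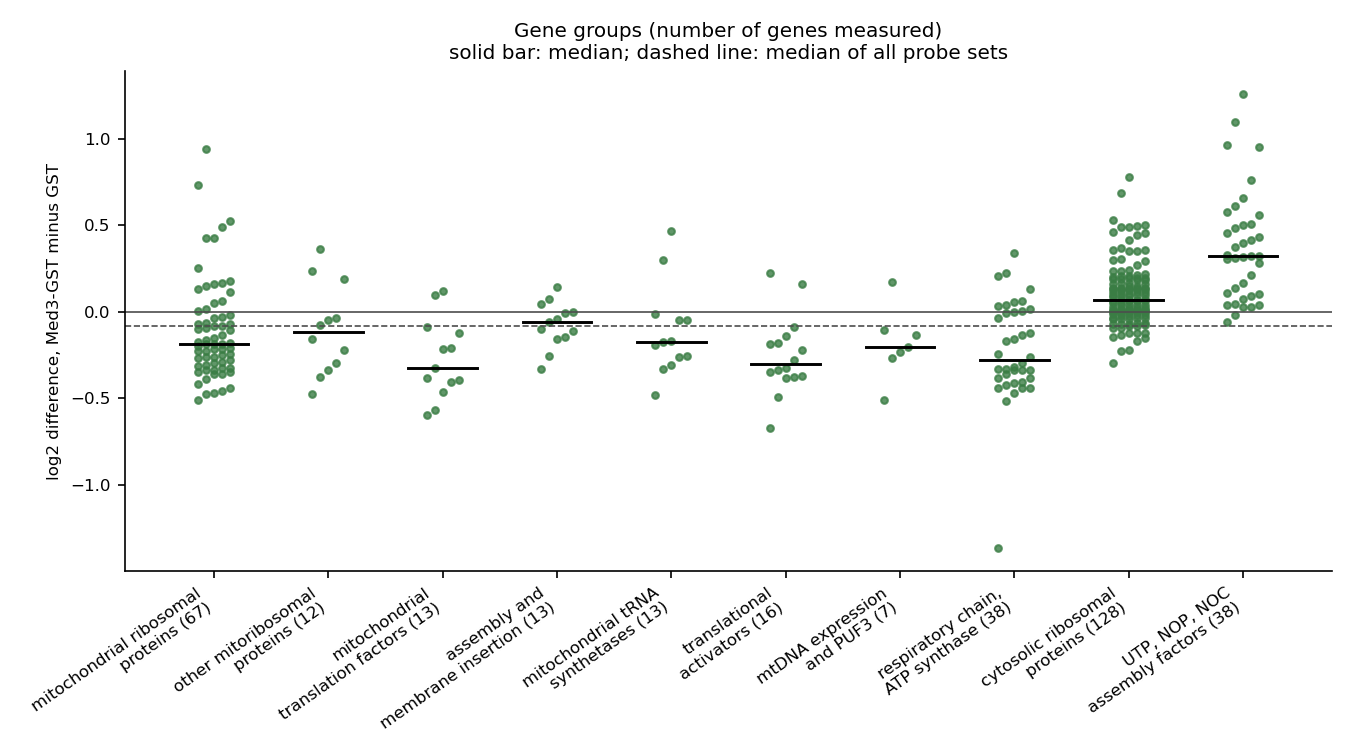
Log2 difference in signal, Med3-GST minus GST, for the 67 genes and for the 9 other lists, 1 point per gene, with the median of each list as a bar and that of all probe sets as a dashed line. As deposited, the medians of the mitochondrial lists lie between -0.33 and -0.06, and those of the cytosolic ribosomal proteins and of the UTP, NOP and NOC genes are at 0.07 and 0.32.

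Some mitochondrial ribosomal protein genes share the stretch before their start with a gene that runs the other way. In the gene order of assembly R64, 35 of these divergent neighbours were measured. Of the neighbours of 7 rising genes none rose and 5 fell, and of the neighbours of 22 falling genes 5 rose and 13 fell, beside 27.1% of all probe sets that rose and 47.8% that fell. After centring, 3 rose and 6 fell of the neighbours of 11 rising genes, and 8 rose and 11 fell of those of 20 falling genes, beside 43.6% and 41.7%. No test of the neighbours against all probe sets was made. Beside RSM7, which was higher by 0.49, YJR115W was at -0.97, and beside MRP4, which was higher by 0.42, SHU1 of the Shu complex in DNA repair was at -0.36. In the reverse arrangement, beside MRPL6, which was lower by 0.46, IMP3 of the nucleolar small subunit processome was at 0.75. MRP21 and its neighbour MAP2, a methionine aminopeptidase gene, were lower together, at -0.47 and -0.49. Across the 35 pairs Pearson's r was -0.25 and Spearman's rho -0.07, given as a description since neighbouring genes were read on the same 6 arrays.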

How the data were processed

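RNA from 3 Med3-GST and 3 GST cultures was hybridized to 1 array each. The authors deposited 1 log10 signal per probe set and array, after normalization within the experiment; base 10 was read from the values, since the antilog had at most 2 decimals in 100% of them. For background correction, probe summary and kind of normalization, the method is not stated in the sources used. Multiplying by log2 of 10 put the values on the log2 scale, with no scaling or filter added.

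Of 10928 probe sets, 5498 annotated to S. cerevisiae were tested with limma 3.58.1 (R 4.3.3; lmFit and eBayes, no trend, two-sided, Benjamini-Hochberg, threshold 0.05). Left out were 1747 S. pombe probe sets, used only as a background level, and 3683 with no gene listed. limma gave every probe set the same standard error, 0.05, because the prior weight was infinite. Centring lowered the median standard error to 0.0243 and the prior weight to 7.97 degrees of freedom. Single genes are therefore given by difference and side of the threshold. The number of arrays limits the precision. Simulated data served to test the fit.

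The members, roles and lists were chosen with earlier results of these data known. Named were the 10 highest and 10 lowest members, all members of the listed regions, PGD1, and up to 3 called genes per list. Members whose call changed after centring were counted and only in part named. The other named genes, neighbours among them, were chosen after their values were seen. Neighbours came from the RefSeq table of assembly R64. Alternatives were centring, quantile normalization, background subtraction with centring, a replicate block, a filter on dim probe sets, eBayes with trend, the own variance of each probe set, the mean of a gene's probe sets and leaving out each array. Leaving RPP1 out of the cytosolic list was chosen after seeing the data.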

Additional observations from a re-analysis of the deposited data

How the results depend on the processing

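As deposited, 13 genes rose and 40 fell, beside 27.1% and 47.8% of all probe sets. With arrays centred 38 fell, while of all probe sets 43.6% rose and 41.7% fell. With arrays centred, centred after background subtraction, or centred with the replicate block, 20 rose each time, and 19 rose after quantile normalization (40.4% of all probe sets). The median difference of the 67 genes, -0.19 as deposited, was -0.093 with centring, -0.085 with quantile normalization, -0.098 with background subtraction and -0.093 with the block and centring. For the large subunit, at -0.16 as deposited, these 4 settings gave -0.067, -0.047, -0.070 and -0.067, and for the small subunit, at -0.20, they gave -0.10, -0.10, -0.11 and -0.10. Genes with all Med3-GST arrays above all GST arrays numbered 20 with centring, 19 with quantile normalization and 19 with background subtraction, against 10. Over all probe sets this share also grew, from 26.6% as deposited to 43.2% with centring. MRPL36 and MRPL17 turned positive without passing the test, at 0.022, 0.013, 0.027 and 0.022 for MRPL36 and at 0.0021, 0.0040, 0.0024 and 0.0021 for MRPL17.

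Across probe sets the deviations of same-lettered arrays correlated at 0.0436, 0.0290 and 0.0618, under 0.1, so the letters were not read as pairs. This measure does not see an offset of a whole array, and array B had the lowest median in both groups. With the replicate block as deposited, 13 genes rose and 46 fell, beside 31.1% and 52.2% of all probe sets. Leaving out 1 array gave 10 to 15 higher, 38 to 44 lower, a median between -0.21 and -0.15 for all 67 genes, between -0.20 and -0.13 for the large and between -0.22 and -0.16 for the small subunit, and 10 to 15 genes all above. With all arrays as deposited, 27.1% of all probe sets were higher, 47.8% lower and 26.6% all above. The call of 12 genes changed without 1 array. Those 12 genes had differences between -0.16 and 0.15 as deposited. With 3 arrays a group, p-values rest only on the spread between these arrays. Each culture had 1 array, so this spread does not tell cultures from arrays. In the limma fit as deposited that spread is a variance shared by all probe sets, not that of each gene.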
